A study of Mus musculus with 28 samples.

Results

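The Igf2-H19 and Kcnq1 imprinted loci were examined as 1 stretch of mouse chromosome 7, from 149700001 to 150750000 in the genome build mm9. The stretch was chosen by its coordinates, which were set to hold H19, Igf2, Ins2, Ascl2, Kcnq1, Kcnq1ot1, Cdkn1c and Phlda2, and its rule uses no measured value, although it was proposed with earlier results of these data known. It spans 1.05 Mb and 5250 bins of 200 bp, of 13274547 bins in the whole segmented genome. The study profiled chromatin by ChIP-seq, in which an antibody recovers the DNA bound to its target, in mouse embryonic fibroblasts (MEFs), primary cells taken from embryos at day 14.5, of strain 129s2, at passages 3 to 4. The 2 genotypes were wild type, called WT, and SirT7-/-, called KO, and each was labelled NT or GS. The labels expand neither abbreviation, and the title of the series concerns glucose starvation. The targets were H3K27me3, macroH2A1 (mH2A1 in the sample names) and SIRT7, and SIRT7 was precipitated from WT cells only.

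Each of the 4 combinations of genotype and treatment has 2 H3K27me3 and 2 mH2A1 libraries but 1 chromatin segmentation, named WT-NT or WT-GS for wild-type cells and KO-NT or KO-GS for knockout cells. The descriptions of the H3K27me3 and mH2A1 samples name the segmentation of their group. Beyond this, which libraries entered a segmentation is not stated. Each segmentation puts every 200 bp bin into 1 of 4 states, named U1 to U4. The meaning of a state, and whether a name stands for the same chromatin in all 4 segmentations, could not be learned from the labels or files. States keep their deposited names, and any state other than U1 is called marked sequence. SIRT7 has 1 peak list for NT and 1 for GS, with 2 libraries for each treatment. With 1 file per group, values carry no error from replicates, and differences between conditions could not be tested. The sequencing depth is unknown, and neither the sex of the embryos nor the number of separate cultures is given in the labels. The states do not separate the maternal from the paternal copy of the chromosome.

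Imprinted genes are expressed mainly from the copy inherited from 1 parent. H19, a long non-coding RNA transcribed from the maternal copy, and Igf2, a growth factor transcribed mainly from the paternal copy, share enhancers and are kept apart by a control region that is methylated on the paternal copy. The neighbouring cluster is governed by Kcnq1ot1, a long non-coding RNA transcribed from the paternal copy within the potassium channel gene Kcnq1, and silencing on that copy is known to involve Polycomb repressive complexes, which lay down H3K27me3. Its maternally expressed genes include Cdkn1c, an inhibitor of cyclin-dependent kinases, Phlda2, a regulator of placental growth, and Ascl2, a transcription factor needed in the placenta. Ins2 encodes insulin. MacroH2A1 is a histone variant known to be enriched in silent chromatin, including imprinted copies.

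All 8 genes were found by symbol in the RefSeq gene table for GRCm38.p6, in the order in which they are named above. From H19 to Phlda2 that table lists 26 genes, of which 12 are protein coding and 11 long non-coding. Among 14 further genes of the clusters and their flanks, 6 lie between H19 and Phlda2: Th, Tspan32, Cd81, Tssc4, Trpm5 and Slc22a18. Positions of single genes in mm9 were not used here, because the gene table belongs to another build. States are therefore given by position, and no stretch is assigned to a gene.

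RefSeq promoters, 250 bases before to 50 bases after a transcript start in GRCm38.p6, were given for Igf2, Ascl2, Kcnq1ot1 and Phlda2, all on the minus strand of chromosome 7. Polycomb complexes are known to favour promoters rich in the dinucleotide CG (CpG), which reads the same on both strands, so CpGs were counted in each. Phlda2 had 26 CpGs, more than 83.1% of the 32851 promoters in the table, and Ascl2 had 23, more than 78.5%. Kcnq1ot1 had 9, more than 54.2%. The 4 starts of Igf2 ranged from 2 to 24 CpGs. The median promoter had 7, and 94.6% of promoters had at least 1. The 250 bases before the start are shown 5′ to 3′ for the genes with 1 listed start, with each CpG in capitals, to show the contrast between the CpG-rich promoters of Phlda2 and Ascl2 and the CpG-poorer promoter of Kcnq1ot1. These 250 bases hold 21 CpGs for Phlda2, 19 for Ascl2 and 5 for Kcnq1ot1, and the counts above also cover the 50 bases after the start. The promoters could not be placed in the segmentations.
Phlda2: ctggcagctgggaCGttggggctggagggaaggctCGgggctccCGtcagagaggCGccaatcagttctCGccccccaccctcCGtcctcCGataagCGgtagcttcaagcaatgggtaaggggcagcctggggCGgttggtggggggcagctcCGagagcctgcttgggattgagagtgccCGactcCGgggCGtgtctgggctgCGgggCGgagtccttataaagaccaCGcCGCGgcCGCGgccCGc
Ascl2: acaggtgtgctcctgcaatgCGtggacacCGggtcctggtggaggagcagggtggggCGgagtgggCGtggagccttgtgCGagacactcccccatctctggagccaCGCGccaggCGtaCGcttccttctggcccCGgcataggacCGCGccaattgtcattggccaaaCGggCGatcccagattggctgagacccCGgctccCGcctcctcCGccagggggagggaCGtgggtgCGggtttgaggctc
Kcnq1ot1: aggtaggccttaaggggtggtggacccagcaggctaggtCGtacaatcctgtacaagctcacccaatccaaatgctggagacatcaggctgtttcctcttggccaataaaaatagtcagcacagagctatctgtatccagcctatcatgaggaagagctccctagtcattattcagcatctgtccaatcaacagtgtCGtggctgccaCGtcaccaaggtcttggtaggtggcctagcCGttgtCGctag

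The imprinted region was rich in marked sequence in all 4 segmentations, and U3 and U4 accounted for this. Marked bins covered 64.9% of the region for WT-NT, 62.9% for WT-GS, 56.7% for KO-NT and 63.9% for KO-GS, against 30.6, 31.0, 26.5 and 27.7% of the autosomes. KO-NT was the lowest of the 4 and the other segmentations lay within a few percentage points of one another. U3 covered 32.3, 35.9, 38.0 and 34.4% of the region in the same order, from 4.18 to 4.58 times its share of the autosomes. U4 covered 11.7% for WT-NT, 8.55% for WT-GS, 3.54% for KO-NT and 9.85% for KO-GS, or 5.51, 5.01, 3.51 and 5.32 times its share of the autosomes. U2 covered 20.9, 18.4, 15.2 and 19.7%, between 0.880 and 1.12 times its share of the autosomes.

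**Figure D1:**
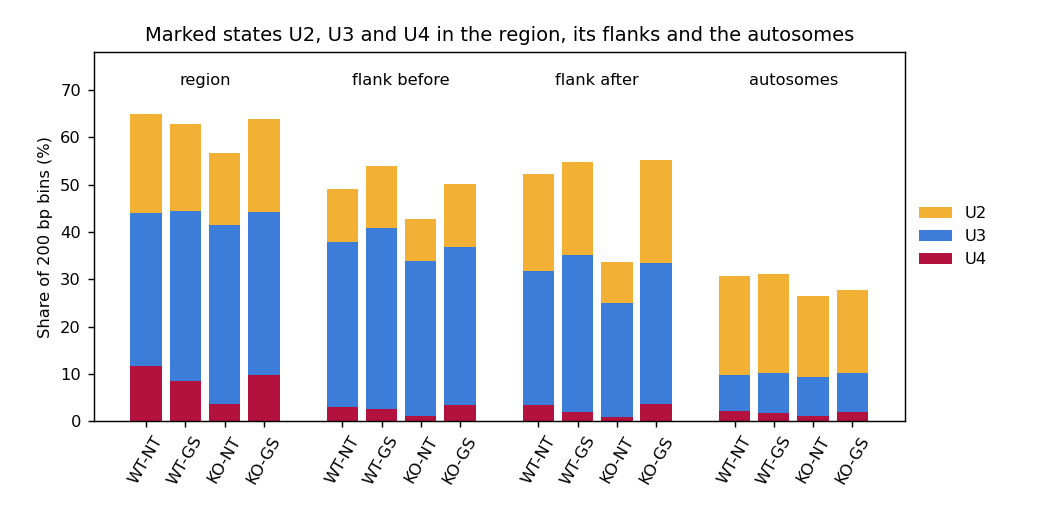
Share of 200 bp bins (y axis, %) in U2, U3 and U4, stacked, for each segmentation in the region, in the 1.05 Mb before it, in the 1.05 Mb after it and on all autosomes. U4 is 3.54 to 11.7% of the region and 1.01 to 2.12% of the autosomes, and KO-NT has the lowest bar in each of the 4 areas.

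U3 was also frequent in the surrounding chromosome, while U4 was higher in the imprinted region than on either side of it. In the 1.05 Mb before the region, from 148650001 to 149700000, marked bins covered 42.6 to 53.8% and U3 covered 32.9 to 38.2%, against 32.3 to 38.0% inside. In the 1.05 Mb after it, from 150750001 to 151800000, marked bins covered 33.7 to 55.2% and U3 covered 28.3, 33.1, 24.0 and 29.8% in the same order of segmentations, below the region in each. U4 covered 1.05 to 3.39% of the sequence before and 0.876 to 3.60% of that after, with its lowest value in KO-NT on both sides. Within the marked sequence of the region U4 made up 18.0% for WT-NT, 13.6% for WT-GS, 6.25% for KO-NT and 15.4% for KO-GS, against 6.92, 5.50, 3.81 and 6.69% on the autosomes.

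The imprinted region was set among 2345 windows of the same length tiling the autosomes, as a description without a test. For U4, 36 windows lay above the region for WT-NT, 52 for WT-GS, 135 for KO-NT and 52 for KO-GS, where the median window had 0.895, 0.724, 0.457 and 0.724% U4. For U3, 80, 75, 46 and 68 windows lay above it. The region therefore ranked high for both states in all 4 segmentations but was not at the extreme, as the highest window reached 29.0% U4 in WT-NT. For U2 it stood near the middle, with 852 to 1090 windows above it.

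**Figure D2:**
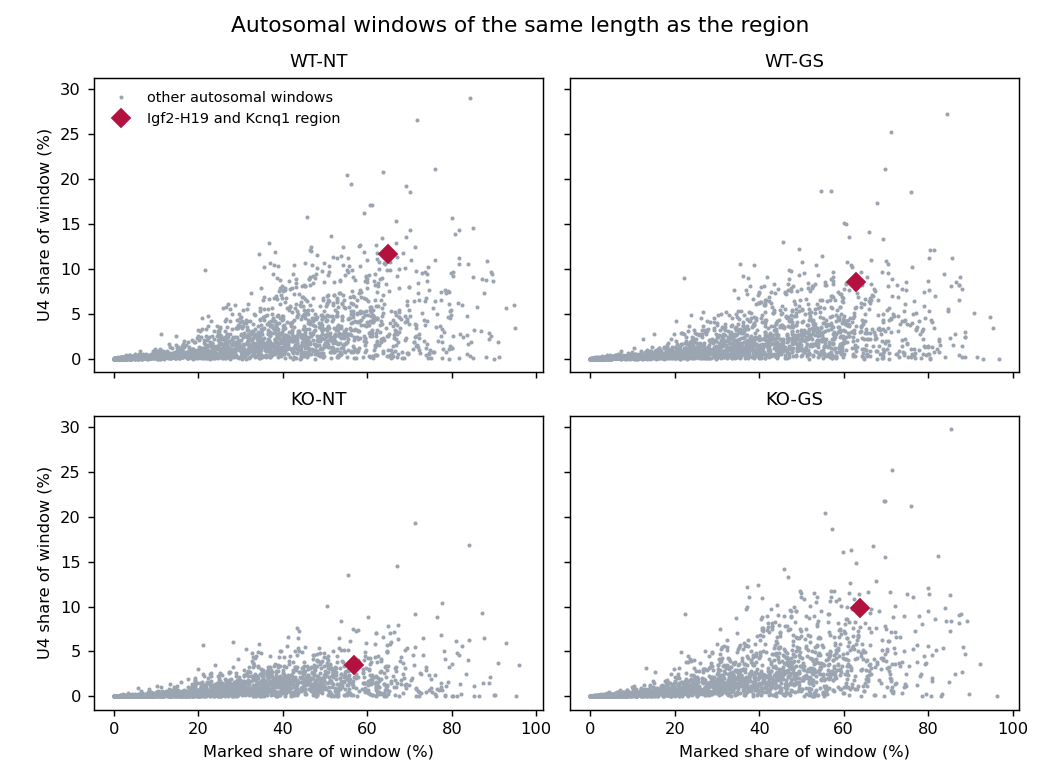
Marked share (x axis, %) and U4 share (y axis, %) of 2345 autosomal windows of 1.05 Mb in each segmentation, with the imprinted region as a red diamond. The region lies at 64.9% marked and 11.7% U4 in WT-NT and at 56.7% and 3.54% in KO-NT, inside the cloud of windows in each panel.

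The marked sequence of the imprinted region held long blocks common to the 4 segmentations, of which some edges were shared and others differed. Bins marked in all 4 amounted to 554.8 kb, or 52.8% of the region against 21.9% of the autosomes, and bins that were U1 in all 4 amounted to 311.6 kb, or 29.7% against 64.3%. Of the region 61.4% had the same state in all 4. Uninterrupted stretches of at least 10 kb that were marked in all 4 numbered 11 and summed to 516.6 kb, and such stretches of U1 numbered 12 and summed to 267.8 kb.

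The longest stretches marked in all 4 segmentations ran from 150489401 to 150593800 (104.4 kb), from 150078601 to 150180800 (102.2 kb) and from 150602001 to 150693400 (91.4 kb). They differed in composition. The first was a fine mixture, in WT-NT 34.3% U2, 32.8% U3 and 33.0% U4, and 46.7% of its bins had the same state in all 4. The second was mostly U3, from 75.7% in KO-GS to 91.2% in KO-NT. The last was also mostly U3, from 66.7% in WT-NT to 91.0% in KO-NT, with U4 filling most of the remainder. A stretch of 27.8 kb from 150196401 to 150224200 was U2 in every bin of all 4, and was the only one of the 11 without U4. Stretches of 51.0 kb from 150266401 and 57.8 kb from 150330001 mixed all 3 marked states. Among the shorter stretches in the initial part of the region, one of 31.2 kb ran from 149835601 to 149866800, with U3 at 58.3 to 68.6%.

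Between these blocks lay sequence that was U1 throughout. The longest such stretch was 55.2 kb from 150694801 to the end of the region, which follows the block that ended at 150694800 in both WT segmentations, 150694600 in KO-GS and 150693400 in KO-NT. A further 37.8 kb from 150439801 to 150477600 lay in a gap between marked blocks where the step from 150400001 to 150450000 was 95.6 to 98.0% U1. Stretches of 31.8 kb from 149924401 and 24.8 kb from 150237601 were also U1 in all 4. A block ended at 150388000 in both WT segmentations and KO-GS and at 150387800 in KO-NT. Another began at 150078001 in the same 3 and at 150078601 in KO-NT.

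**Figure D3:**
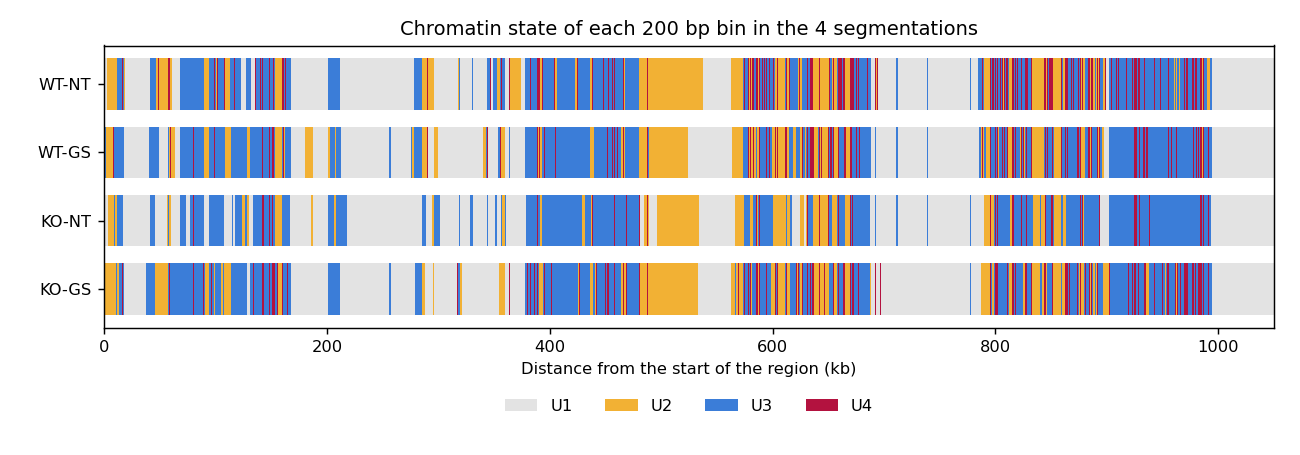
State of each 200 bp bin (colour) along the region (x axis, distance from its start in kb) in the 4 segmentations (rows). Several long marked blocks and U1 gaps recur in all rows, others are present or broken in some rows only, U4 appears as thin lines within U3 and U2, and KO-NT has the fewest U4 lines.

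Marked domains, defined as marked bins with gaps of up to 1 kb bridged and a length of at least 10 kb, numbered 12 for WT-NT, 8 for WT-GS, 12 for KO-NT and 7 for KO-GS. They covered 63.5, 58.9, 52.1 and 61.5% of the region. With gaps of up to 5 kb bridged they numbered 8, 8, 10 and 6, so the order of WT-NT and the others depends on the bridging. The WT-NT domains from 149741001, 149978601, 150049401 and 150063401 had no counterpart among the KO-NT domains. Those from 150049401 and 150063401 had none for WT-GS or KO-GS either. The domain from 149741001 also had none for WT-GS, and that from 149978601 none for KO-GS. The WT-NT domain from 150078001 to 150237600 ended at 150224200 for WT-GS and 150233400 for KO-GS, and for KO-NT it was a pair, from 150078601 to 150180800 and from 150196401 to 150234400. Where KO-GS had a single domain of 207.8 kb from 150486801 to 150694600, the longest of any segmentation, the other 3 had a pair of domains. The second of the pair began at 150602001 in each, and the one before it ended at 150599000 for WT-NT, 150597400 for WT-GS and 150593800 for KO-NT. From 149767801 to 149867400 WT-GS had 1 domain of 99.6 kb, and over the same sequence WT-NT had a pair of domains and KO-NT had 4.

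U4 in the imprinted region occurred in short pieces inside other marked sequence. It formed 241 segments for WT-NT, 193 for WT-GS, 100 for KO-NT and 237 for KO-GS, with a median length of 400 bp in both WT segmentations and 200 bp in both KO segmentations, and none was longer than 3600 bp. Segments of a single bin made up 42.3, 49.2, 55.0 and 54.4% of them, against 58.6 to 64.1% on the autosomes. U4 bordered on U3 in 72.0% of its borders for WT-NT, 71.8% for WT-GS, 79.5% for KO-NT and 69.4% for KO-GS, against 54.2 to 58.1% on the autosomes. The region also held more U3, in WT-NT 32.3% against 7.69% of the autosomes, while U2 was 20.9 and 20.8%. Whether the border shares go beyond this composition was not tested. At most 2.11% of its borders were with U1.

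In WT cells, the first comparison asked how states differed between NT and GS. U4 was lower in GS (8.55 against 11.7% of the region, a ratio of 0.732 where the autosomes gave 0.805) and U3 higher (35.9 against 32.3%, a ratio of 1.11 against 1.09). U4 was lower in 15 of 21 steps of 50 kb and higher in 3. U2 was lower, at 18.4 against 20.9%, whereas its share of the autosomes was nearly level, at 20.8% in NT and 20.9% in GS. U1 was higher, at 37.1 against 35.1%. With the region widened by 100 kb at each end the differences were smaller, at -1.25 percentage points for U2 in place of -2.48 and 0.928 for U1 in place of 2.04.

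Of the 5250 bins, 1150 (21.9%) differed in state between WT-NT and WT-GS, against 9.60% of autosomal bins. Among bins marked in either segmentation, 32.2% differed in the region and 28.1% on the autosomes. The most frequent transition was U4 to U3, with 262 bins, followed by U2 to U1, with 228 bins (20.8% of the U2 bins of WT-NT, against 12.4% on the autosomes). Bins that left U4 numbered 300 (5.71%, against 0.983% of autosomal bins) and bins that entered it numbered 136 (2.59%, against 0.570%). Of the U4 bins of WT-NT, 51.1% were still U4 in WT-GS and 42.7% were U3, against 53.6 and 34.6% on the autosomes. Bins that went from marked to U1 numbered 272 (5.18%, against 3.12%), and those that went from U1 to marked 165 (3.14%, against 3.53%). These are shares of all bins, and WT-NT had more marked and less U1 sequence in the region than on the autosomes. Of the U3 bins of WT-NT 2.30% went to U1, against 6.40% on the autosomes. For its U4 bins this was 0.816%, against 1.92%. Of its U1 bins 91.0% stayed U1 in WT-GS, against 94.9%.

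The largest uninterrupted changes in WT were losses of U2 to U1. All bins of a 13.4 kb run from 150224201 to 150237600 went from U2 to U1, which shortened the U2 end of a long marked block. In a run of 10.8 kb from 150063401 to 150074200, 96.3% of bins made the same change, and in one of 11.4 kb from 149746601 to 149758000, 68.4% did. In the opposite direction, 97.1% of bins of a 7.0 kb run from 149880601 to 149887600 went from U1 to U2. By steps of 50 kb, the widest difference in U1 was in the step from 150050001 to 150100000, at 14.0% in NT and 43.2% in GS. The widest difference in U4 was in the step from 150500001 to 150550000, at 34.8% in NT and 20.8% in GS, where U3 was 34.8 and 46.0%.

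In KO cells the same comparison gave the opposite directions for all 4 states. U4 covered 3.54% of the region with NT and 9.85% with GS, a ratio of 2.78 where the autosomes gave 1.84, and was higher in GS in 19 of 21 steps and lower in 0. When each segment shorter than 1 kb took the state of the one before it, the difference was 3.30 percentage points in place of 6.30. U1 covered 43.3% in NT and 36.1% in GS, U2 15.2 and 19.7%, and U3 38.0 and 34.4%. The U1 difference of -7.20 percentage points was -4.68 with the region narrowed, and the U2 difference of 4.51 was 7.07 with short segments joined and 7.09 with the region widened. On the autosomes U3 differed by only -0.0614 percentage points in KO, against -3.62 in the region.

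Between KO-NT and KO-GS, 1286 bins (24.5%) differed, against 10.8% of autosomal bins, and among bins marked in either segmentation 37.0% differed, against 34.7%. The most frequent transition was U3 to U4, with 297 bins, or 14.9% of the U3 bins of KO-NT against 9.88% on the autosomes. Next came U1 to U2, with 248 bins (10.9% of U1 bins, against 4.63%), and U1 to U3, with 225 (9.90%, against 1.62%). Bins that entered U4 numbered 375 (7.14%, against 1.19%) and bins that left it 44 (0.838%, against 0.346%). Bins that went from U1 to marked numbered 494 (9.41%, against 4.69%), while 116 went from marked to U1 (2.21%, against 3.48%). These are shares of all bins, and KO-NT had more marked and less U1 sequence in the region than on the autosomes. Of the U4 bins of KO-NT 76.3% were still U4 in KO-GS, against 65.7% on the autosomes.

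The gain of marked sequence in KO-GS was largest near the start of the imprinted region, and the gain of U4 near its other end. In the step from 149750001 to 149800000, U1 covered 44.4% with NT and 0% with GS, with U3 at 49.6 and 72.0% and U2 at 4.80 and 23.2%. The neighbouring steps from 149700001 and from 149800001 had 63.2 and 26.0% U1 in KO-NT and 38.4 and 4.00% in KO-GS. Within this part lay the longest runs of changed bins, an 11.0 kb run from 149745801 to 149756800, 94.5% of it U1 to U2, and a 9.0 kb run from 149759201 to 149768200, 86.7% of it U1 to U3. For U4 the widest difference was in the step from 150650001 to 150700000, at 10.8% in KO-NT and 35.2% in KO-GS, with U3 at 76.0 and 51.2%. U1 was higher with GS in 4 of 21 steps, most in the step from 149900001 to 149950000, at 65.2 and 77.6%.

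**Figure D4:**
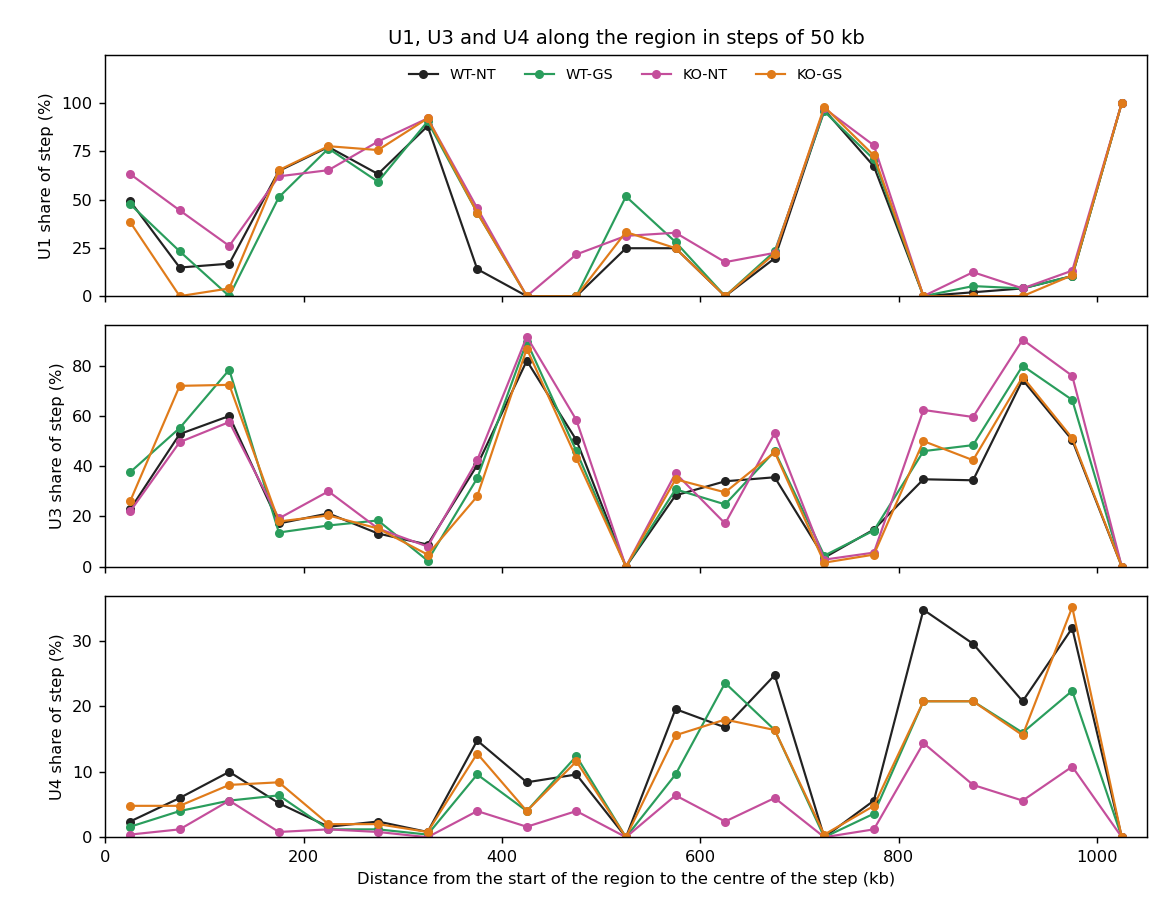
Share of each 50 kb step (y axes, %) in U1, U3 and U4 against distance from the start of the region (x axis, kb) for the 4 segmentations. U4 stays at or below 14.4% for KO-NT where WT-NT reaches 34.8%, and KO-NT has the highest U1 in the initial 3 steps.

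The genotypes differed more in NT than in GS. In NT, U4 covered 11.7% of the region in WT and 3.54% in KO, a ratio of 0.303 where the autosomes gave 0.476, and was lower in KO in 18 of 21 steps and higher in 0. U1 covered 35.1% in WT and 43.3% in KO, U2 20.9 and 15.2%, and U3 32.3 and 38.0%. After the same joining of short segments the U4 difference was -5.41 percentage points in place of -8.13. The U4 difference was widest near the end of the region, at 29.6% in WT and 8.00% in KO in the step from 150550001 to 150600000.

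Between WT-NT and KO-NT, 1335 bins (25.4%) differed, against 11.0% of autosomal bins, and 38.0 against 33.9% of the bins marked in either. The leading transitions were U4 to U3, with 384 bins, and U2 to U1, with 318 (29.0% of the U2 bins of WT-NT, against 23.0% on the autosomes). Bins of WT-NT that were U4 and another state in KO-NT numbered 459 (8.74%, against 1.40%), and the reverse 32 (0.610%, against 0.295%). Of the U4 bins of WT-NT 25.1% were U4 in KO-NT and 62.6% were U3, against 33.7 and 49.4% on the autosomes. Bins marked in WT and U1 in KO numbered 535 (10.2%, against 6.15%), and the reverse 106 (2.02%, against 2.02%). These are shares of all bins, and WT-NT had more marked sequence in the region than on the autosomes. Of the U3 bins of WT-NT 11.7% were U1 in KO-NT, against 16.3% on the autosomes. For its U4 bins this was 3.10%, against 5.15%. Of its U1 bins 94.2% were U1 in KO-NT, against 97.1%. The longest run of differing bins, 15.6 kb from 149978601 to 149994200, held 5 kinds of difference, of which U3 in WT and U1 in KO was the most frequent (39.7%). Runs of 10.8 kb from 149746001 and from 150063401 were mostly U2 in WT and U1 in KO, at 90.7 and 96.3% of their bins. The run of 7.2 kb from 150189201 to 150196400 was U2 in WT and U1 in KO throughout.

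In GS the genotypes were closer. U4 covered 8.55% of the region in WT and 9.85% in KO, higher in KO in 12 of 21 steps and lower in 3, and the difference became 0.0190 percentage points after short segments were joined. U1 covered 37.1 and 36.1%, and its KO minus WT difference of -1.07 percentage points was 0.565 with the region narrowed by 100 kb at each end. The remaining states were close, with U2 at 18.4 and 19.7% and U3 at 35.9 and 34.4%. On the autosomes U2 was 20.9% in WT-GS and 17.6% in KO-GS, while the KO minus WT difference in the region was 1.28 percentage points, 0.381 in 1 kb bins and 0.0941 with the region narrowed. Marked sequence was 62.9 and 63.9% of the region and 31.0 and 27.7% of the autosomes. With the region narrowed by 100 kb at each end its direction turned, to 64.8% for WT-GS and 64.2% for KO-GS.

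Between WT-GS and KO-GS, 1025 bins (19.5%) differed, against 9.85% of autosomal bins. Among bins marked in either the region and the autosomes were level, at 29.4 and 29.9%. Bins that were U4 in KO alone numbered 229 (4.36%, against 0.790%) and those that were U4 in WT alone 161 (3.07%, against 0.643%). Bins marked in KO and U1 in WT numbered 191 (3.64%, against 1.90%), and the reverse 135 (2.57%, against 5.23%). These are shares of all bins, and WT-GS had more U4 in the region than on the autosomes, at 8.55 against 1.71%. Of the U4 bins of WT-GS 64.1% were U4 in KO-GS, against 62.3% on the autosomes. Of its U3 bins 10.6% were U4 in KO-GS, against 6.36%. The longest runs lay where the treatments had differed. A 9.2 kb run from 150224201 to 150233400 was U1 in WT and U2 in KO throughout, within the run that WT lost between NT and GS. A run of 8.4 kb from 149749401 to 149757800 was 92.9% U1 in WT and U2 in KO.

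**Figure D5:**
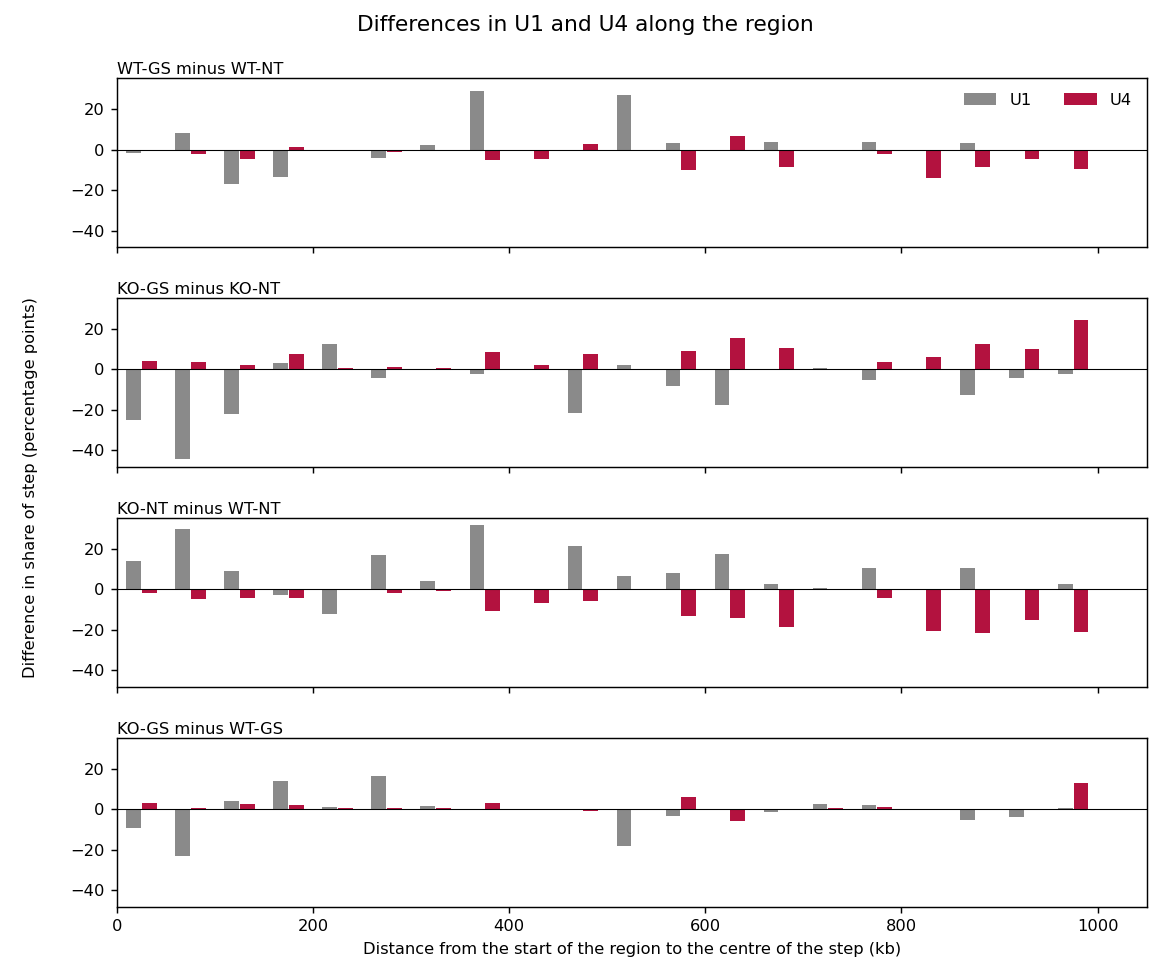
Differences in the share of U1 (grey) and U4 (red) in each 50 kb step (y axis, percentage points) along the region (x axis, kb) for the 4 comparisons, second segmentation minus first as each panel names them. U4 bars point down in 15 of 21 steps for treatment in WT and up in 19 of 21 for treatment in KO, and down in 18 of 21 for genotype in NT.

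Each segmentation enters 2 of these comparisons, so the low U4 and high U1 of KO-NT appear both in the treatment comparison in KO and in the genotype comparison in NT. A feature of the KO-NT segmentation and an effect of treatment or genotype cannot be told apart with 1 segmentation per group. Bins that were U1 in KO-NT and marked in the other 3 amounted to 63.4 kb of the imprinted region (6.04%, against 2.70% of the autosomes), more than bins that were U1 in WT-NT alone (6.4 kb, 0.610% against 0.488%), in WT-GS alone (11.2 kb, 1.07% against 0.442%) or in KO-GS alone (3.4 kb, 0.324% against 1.57%). For KO-NT the share in the region was 2.24 times that on the autosomes, and for bins marked in all 4 it was 2.41 times. The KO-NT value therefore did not exceed the general excess of marked sequence in the region. Bins that were U4 in the other 3 and not in KO-NT amounted to 24.8 kb (2.36%, against 0.372%), and the corresponding values were 1.8 kb for WT-NT, 3.0 kb for WT-GS and 3.2 kb for KO-GS. U4 in WT-NT alone covered 36.6 kb (3.49%, against 0.571%), in KO-GS alone 23.4 kb (2.23%, against 0.405%), in WT-GS alone 15.8 kb (4.52 times its autosomal share of 0.333%) and in KO-NT alone 2.4 kb (0.229%, against 0.166%). U4 in all 4 covered 22.0 kb, or 2.10% of the region against 0.492% of the autosomes. That is 4.26 times the autosomal share, where U4 in the other 3 and not in KO-NT was 6.34 times its autosomal share. On the autosomes too, KO-NT had the least U4 of its own and the most U1 of its own among the 4 segmentations.

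No SIRT7 peak lay in the imprinted region in either treatment. The GS list held 2671 peaks, of which 2272 were on autosomes and 164 on chromosome 7, and the NT list held 90, 58 and 4. At the autosomal density the region would hold 0.965 GS peaks and 0.0246 NT peaks. A count of 0 has an exact two-sided Poisson 95% interval up to 3.69 peaks, for counting error only, so neither list could show a shortage at this length. Of the 2345 autosomal windows of 1.05 Mb, 49.0% held no GS peak and 97.9% no NT peak. The nearest GS peak lay 4.82 Mb before the region, from 144883458 to 144884471, with a deposited score of 778, and was U1 in all 4 segmentations. The nearest NT peak lay 2.66 Mb before it, from 147037560 to 147038464, with a deposited score of 659, and was U1 in all but KO-GS, where it was U2. No listed peak followed the region on the chromosome, and the stretch without GS peaks that holds it extended over 7.64 Mb to the end of the segmented chromosome. On the autosomes 26 of 2291 stretches between GS peaks or chromosome ends were at least as long. Long stretches cover more sequence, so a given region falls in one more often than this count of stretches shows. The states in the region differed between the segmentations, and no listed SIRT7 peak lay within it. Whether the 2 observations are linked was not tested, and SIRT7 binding below the lists' threshold was not analysed here.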

How the data were processed

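Chromatin of WT and SirT7-/- MEFs was measured by ChIP-seq in 28 libraries, 20 ChIP and 8 input. Per the submitters' processing notes, the tools included MACS 1.4.2, deepTools 2.4.2, SAMtools 0.1.19, Bowtie, Trimmomatic 0.36 and FastQC 0.11.3, and the builds mm9 and hg19, without their roles. The authors deposited 4 segmentations that name a state per segment and 2 SIRT7 peak lists with a score per peak. Not given in the sources used here were the segmentation tool, the caller of these lists, and what states and scores mean. Chromosome 7 ends at 153 Mb in the segmentations, beyond the last GRCm38.p6 gene at 145 Mb, and coordinates are taken as mm9, counted from 1. Segments were expanded to 200 bp bins with Python 3.11.15 and numpy 2.4.6, and intervals came from scipy 1.17.1. Autosomes, with their unassembled ends, served as background. Ties in 1 kb bins took the lowest state number. The reading of segments, domains and changes was tested on simulated data. Peaks counted as inside with an overlap of 1 bp. All 8 listed genes, all domains and the 5 longest runs of changed bins per comparison formed the rule for what could be named, while the 50 kb steps quoted, the stretches shared by the 4 segmentations and the windows were chosen after the data were seen. Members and lists were chosen with earlier results of these data known. No test was made between conditions, since each group has 1 file.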

Additional observations from a re-analysis of the deposited data

Results flagged for a closer look

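The share of each state in the region moved in opposite directions between NT and GS in WT and KO cells, a difference between genotypes that was not tested. GS minus NT was 2.04 percentage points in WT and -7.20 in KO for U1, -2.48 and 4.51 for U2, 3.56 and -3.62 for U3, and -3.12 and 6.30 for U4. On the autosomes U4 also moved in opposite directions, by -0.413 in WT and 0.843 in KO, as did U3, by 0.708 and -0.0614. There U1 moved by -0.407 and -1.21 and U2 by 0.112 and 0.426, each in 1 direction. The directions held with 1 kb bins, with short segments joined and with the region widened or narrowed, while the sizes ranged more widely: U1 from 0.928 to 2.19 in WT and from -9.38 to -4.68 in KO, and U2 from -2.48 to -1.25 and from 3.36 to 7.09. With 1 segmentation per group the 8 values of the region rest on 4 segmentations, and KO-NT enters all 4 KO values.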

How the results depend on the processing

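Of 116 values under alternative settings for 30 results, 84 stayed near the main value, 31 moved away from it and 1 reversed. Shares and differences counted as near within the 95% binomial interval of the main value over bins. Domain counts did so within 1.5 times, and peak counts where equal. Neighbouring bins are not independent, so that interval served only as a yardstick of size and not as a test. No paired analysis was possible because each group has 1 file for its replicates, and for the same reason no replicate could be left out. The reversal was U1, KO minus WT in GS, at 0.565 percentage points with the region narrowed by 100 kb against -1.07. With the region widened by 100 kb the marked share was 60.3 and 59.4% for WT-NT and WT-GS and 52.1 and 61.4% for KO-NT and KO-GS, and narrowed by 100 kb it was 66.9 and 64.8% for WT-NT and WT-GS and 59.5 and 64.2% for KO-NT and KO-GS. Bins that differed amounted to 20.8, 22.5, 22.5 and 17.5% with segments shorter than 1 kb given the preceding state (treatment in WT and KO, genotype in NT and GS), to 8.32, 11.6, 12.2 and 6.21% when only U1 and marked were compared, to 20.2% (treatment in WT), 23.5 and 18.1% (genotype in NT and GS) with the region widened, and to 18.3% (genotype in GS) with 1 kb bins. The U4 difference for treatment in KO was 4.57 percentage points in bins of 1 kb and 3.30 after joining short segments, that for genotype in NT was -6.19, -5.41 and, with the region widened, -6.86, and that for genotype in GS was 0.0190 with short segments joined. U4 kept its direction in all 4 comparisons with 1 kb bins, with short segments joined and with the region widened or narrowed. Numbers of domains were equal with no gaps bridged, and 0 SIRT7 peaks lay in the region under each setting. U4 values depend on single bins, and the depth behind them is unknown.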
